A study of Mus musculus with 2 samples.

Results

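The mitochondrial import machinery was taken here as every probe on the array whose gene symbol named a subunit of the TOM or TIM translocases (Tomm and Timm genes with a number), the import motor genes Pam16, Dnajc19, Grpel1 and Grpel2, the processing peptidase genes Pmpca and Pmpcb, the outer membrane assembly genes Samm50, Mtx1 and Mtx2, or Chchd4. The choice was by gene name, not by intensity, though it was made with earlier results of these data known. It gave 33 probes of 32 genes, out of 19316 named genes in the table. Tomm5, Timm8b and Pmpca fit the choice by name and are not analysed here.

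The RNA came from vesicles shed into culture medium by murine cytotoxic T lymphocytes (CTL), which destroy infected and tumour cells. Medium was collected after 7 days of culture, concentrated on a 750 kDa membrane and loaded on DEAE, a positively charged resin that holds negatively charged particles until salt displaces them. One group is the fraction eluted with 0.3 M NaCl and the other the fraction eluted with 0.5 M NaCl, each measured on 1 single-colour Cy5 array. The labels state no genotype, strain, age or stimulus, and both fractions come from the same kind of culture. With 1 array per fraction there is no replicate and no test, so every difference describes this pair of arrays. In bulk vesicle RNA, fewer vesicles with a transcript and fewer copies per vesicle cannot be told apart.

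Most mitochondrial proteins are made on cytosolic ribosomes and cross the mitochondrial membranes as unfolded precursors. The TOM complex of the outer membrane recognises and admits them. From there, precursors with an N-terminal presequence pass through TIM23 and are pulled into the matrix by the PAM motor, while carrier proteins are escorted by small TIM chaperones to TIM22. Barrel proteins are inserted into the outer membrane by the SAM complex. Activated T cells enlarge their mitochondria as they divide, which draws on this machinery.

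A value was deposited on both arrays for 68.8% of all probes and for 31 of the 33 import probes. Tomm20l, a relative of the receptor Tomm20, had no value on either array, and Tomm40l, a relative of the channel Tomm40, had an intensity of 6 at 0.3 M and none at 0.5 M. That left 30 genes. Over probes measured on both arrays the median intensity was 32 at 0.3 M and 26 at 0.5 M, so each array was centred on its own median in log2. This removes a shift of -0.30 from every log2 difference (0.5 M minus 0.3 M). A gene counted as bright enough, and was kept, if on either array it reached the median of measured genes, an intensity of 32.0 at 0.3 M or 26.1 at 0.5 M. Of the 30 import genes 22 were kept, and Timm8a2, Dnajc19, Timm44, Tomm40, Pmpcb, Mtx2, Timm9 and Timm10 were too dim. Timm29 was kept only through its value of 33 at 0.3 M, as its 17 at 0.5 M was below the cutoff.

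Of 11 CTL markers on the array 10 were kept, among them Cd8a (3677 to 2463) and Gzmb (2493 to 2838), while Cd3e was dim at 12 and 14. The intensities of the 11 markers summed to 47873 at 0.3 M and 32986 at 0.5 M, but Tbx21 alone went from 39433 to 25174, and without it the sums were 8440 and 7812. The 10 kept markers had a median log2 difference of 0.47 after centring (0.18 as deposited). After centring 6 (60.0%) were above 0, near the 55.9% of all kept genes. The sums for markers of other cells were 381 and 549 for 6 B cell genes, 402 and 230 for 8 macrophage and dendritic cell genes, and 17163 and 7935 for 5 red cell genes. Single genes dominate the B cell and macrophage sums and others go against them. Among B cell genes Cd79b (94 to 328) and Blnk (26 to 63) stood against Cd22 (225 to 126). Among macrophage genes Mrc1 (259 to 87) stood against Csf1r (49 to 50) and Cd68 (50 to 53). The red cell sum rests mostly on Hba-a2 (12001 to 5681), Hbb-bs (3747 to 1518) and Hbb-bt (1367 to 697), and no red cell gene was brighter at 0.5 M. Pax5 and Adgre1 had no value on either array, and Fcgr1 none at 0.5 M. The part of these other cells in the import gene values was not tested.

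As deposited, 17 of the 31 import probes (54.8%) were brighter at 0.5 M and 14 were dimmer, where 30.6% of all 16154 probes measured on both arrays were brighter. The 22 kept genes had a median log2 difference of 0.43, from -0.66 for Timm29 to 1.10 for Timm10b, against a median of 0.08 over the 7446 kept genes. As deposited these medians were 0.13 and -0.22. After centring 16 of the 22 (72.7%) were above 0, where 55.9% of all kept genes were. At least 1.5-fold higher at 0.5 M were 7 of 22 (31.8%) against a background of 18.9%, and at least 1.5-fold lower was 1, Timm29, against 11.0%. Only 1 import gene, Timm10b, was at least 2-fold higher (0 as deposited or with a pseudocount), against 5.24% of kept genes, and 0 were at least 2-fold lower, against 2.35%. Counted over all 30 measured genes, dim ones included, the median was 0.38 with 18 above 0 (60.0%), beside 0.05 and 53.8% for all 13735 measured genes.

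The size of these differences has to be read against probe error. Where a kept gene had several probes, their differences varied with an SD of 0.55 (358 genes). The SD among the 22 kept import genes was 0.49 and among all kept genes 0.56, so the spread among import genes was no larger than that between probes of the same gene. All kept import genes rest on 1 probe each.

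**Figure D1:**
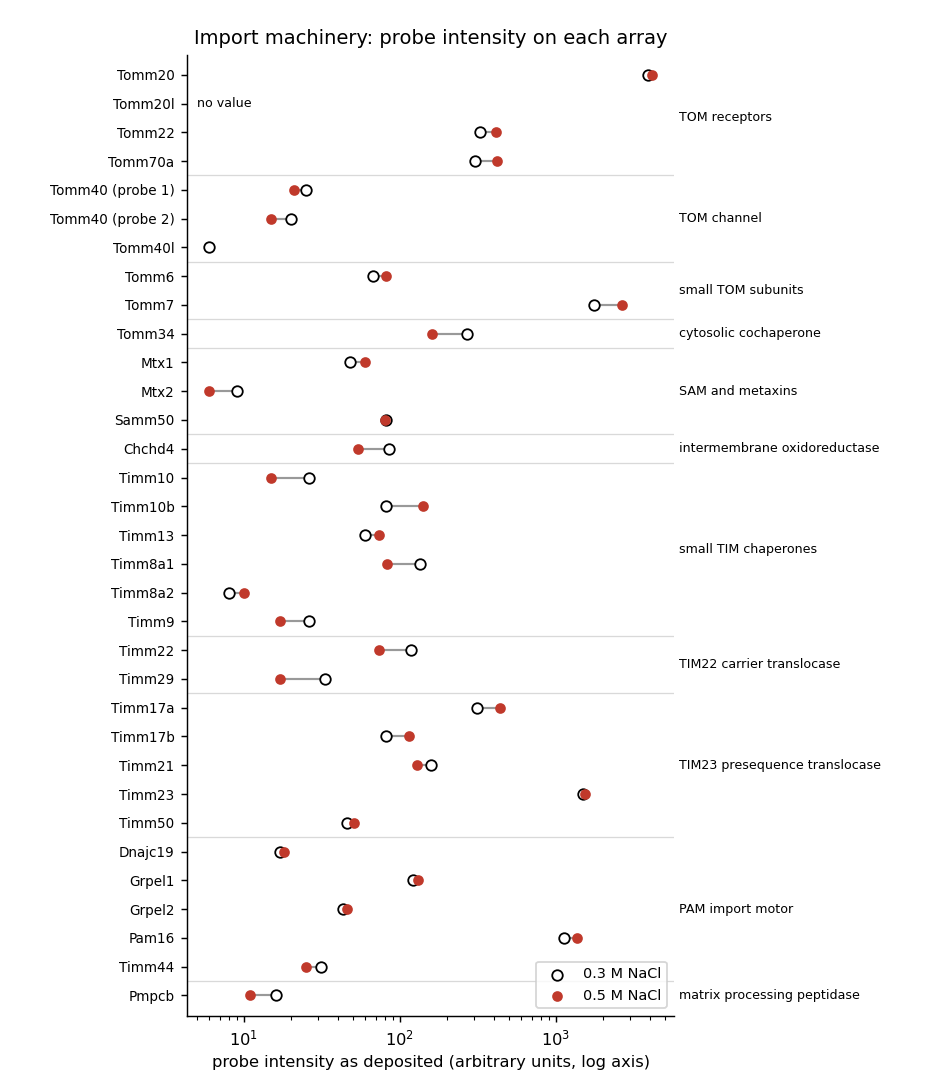
Deposited intensity of each import probe (log axis, arbitrary units) at 0.3 M (open) and 0.5 M NaCl (red), grouped by role, 1 array each. Values of different probes are not comparable with each other; within a row, Tomm7 moves from 1747 to 2660 and Tomm34 from 270 to 160.

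The 3 measured receptors and 2 measured small subunits of the TOM complex, the entry gate, had higher intensities at 0.5 M. Tomm20, the receptor that binds presequences, had an intensity of 3920 at 0.3 M and 4124 at 0.5 M, a log2 difference of 0.37. Tomm22, the central receptor that holds the complex together, went from 326 to 413 (0.64). Tomm70a, the receptor for carrier precursors handed over by cytosolic chaperones, went from 305 to 421 (0.76). The median of these 3 receptors was 0.64 (0.34 as deposited, 0.42 with loess, 0.44 with quantile normalization, and 0.39 relative to genes of the same brightness). Among the small subunits that shape the complex, Tomm7 went from 1747 to 2660 (0.91, or 1.87-fold) and Tomm6 from 67 to 81 (0.57). These 5 differences were above 0 before centring as well, as were 2562 of all 7446 kept genes. Of them only Tomm20 turned below 0 (-0.19) when the trend of the difference with intensity was removed by loess. Tomm20 was also the only one below 0 (-0.26) relative to genes of the same brightness.

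Tomm40 forms the channel through which nearly all precursors pass, and both of its probes were dim. One went from 25 to 21 and the other from 20 to 15, differences of 0.05 and -0.12 after centring. The channel gene thus had no difference that could be read at this brightness. Tomm34, a cytosolic cochaperone that works with Hsp70 and Hsp90 and is not built into the translocase, went the other way, from 270 to 160 (-0.46).

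The genes of outer membrane assembly differed among themselves. Samm50, the barrel that inserts other barrels, was at 81 and 80, a difference of 0.28 that comes from centring alone (-0.02 as deposited). Mtx1, a metaxin that partners it, went from 48 to 60 (0.62), and Mtx2, its fellow metaxin, was at the dim end of the table with 9 and 6.

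The TIM23 complex, which takes presequence proteins across the inner membrane, had 4 of its 5 genes above 0 after centring, where 55.9% of all kept genes were. The count was 3 of 5 with loess, with quantile normalization and relative to genes of the same brightness. Of all 7446 kept genes, 3714, 3681 and 3701 were above 0 on these scales, in that order. Its alternative channel-lining subunits had differences of similar size, Timm17a from 313 to 438 (0.78) and the X-linked Timm17b from 81 to 114 (0.79). Timm50, the receptor facing the intermembrane space, went from 46 to 51 (0.45). Timm23 itself was at 1503 and 1536 (0.33, and -0.11 with loess). Timm21, which links TIM23 to TOM and to the respiratory chain, was the exception, from 159 to 129 (-0.0021). The median of the 5 genes was 0.45 (0.15 as deposited).

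The PAM motor sits on the matrix side of TIM23. Pam16, which restrains the J-protein of the motor, went from 1133 to 1371 (0.57). The nucleotide exchange factors Grpel1 and Grpel2, which reset the motor Hsp70, went from 121 to 130 (0.40) and from 43 to 46 (0.40). Dnajc19, the J-protein, was dim at 17 and 18, and Timm44, the tether of the motor, was dim at 31 and 25. Pmpcb, the catalytic subunit of the peptidase that cuts presequences off, was dim at 16 and 11.

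Timm22, Timm29 and Chchd4 had lower intensities at 0.5 M. Other genes of the route for carrier proteins, Tomm70a (0.76) and Timm10b (1.10), had higher ones. Timm22, the carrier translocase, went from 118 to 74 (-0.37) and its subunit Timm29 from 33 to 17 (-0.66, or 1.58-fold lower). Timm29 was near the brightness cutoff and was kept only through 0.3 M. Chchd4, known as Mia40, which folds small TIM chaperones by making their disulfide bonds, went from 85 to 54 (-0.35). Timm22, Timm29, Chchd4 and Timm8a1 stayed below 0 in each of the scalings tried and with a pseudocount, as did 44.0% of all kept genes.

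The small TIM chaperones that lead carriers through the intermembrane space lay on both sides of 0. Timm8a1, whose human counterpart is lost in deafness-dystonia syndrome, went from 134 to 83 (-0.39). Timm9 (26 to 17) and Timm10 (26 to 15), which form the main chaperone hexamer, were dim and lower. On the other side stood Timm10b, the chaperone that docks on TIM22, from 81 to 141 (1.10, or 2.14-fold), and Timm13, the partner of Timm8 proteins, from 60 to 73 (0.58). Timm8a2, a copy of Timm8a1, was dim at 8 and 10, and shared binding between these probes was not checked. Whether carrier route and presequence route genes differ was not tested, since the grouping follows values already seen and there is 1 array per fraction.

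**Figure D2:**
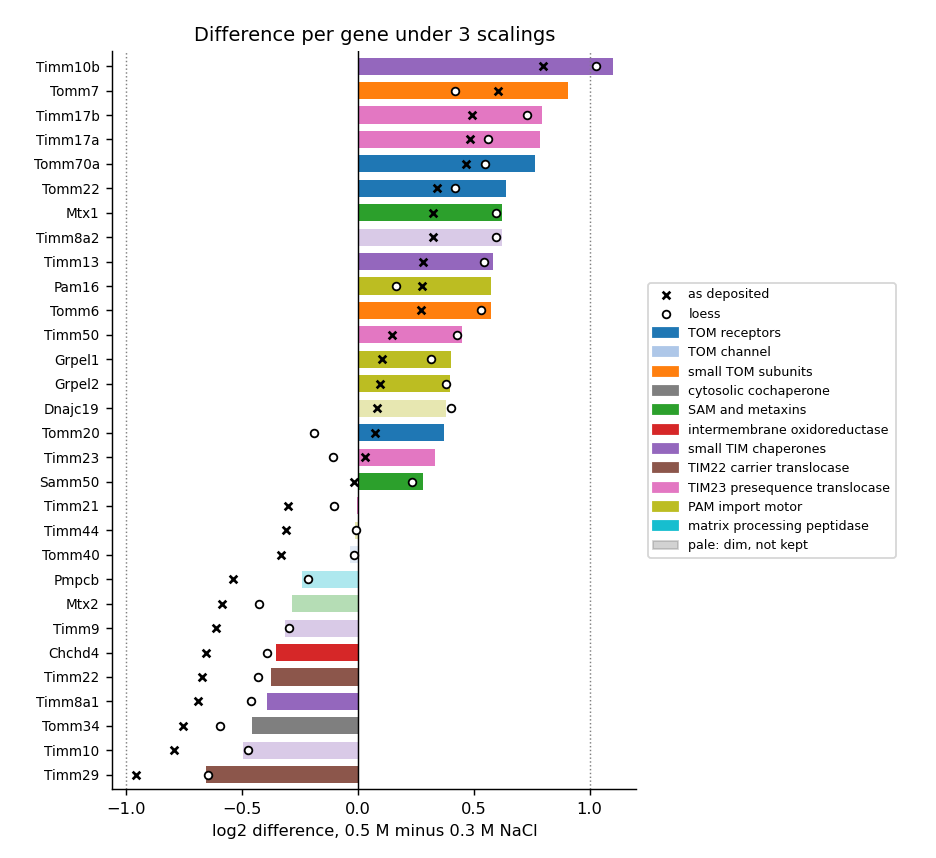
Log2 difference (0.5 M minus 0.3 M NaCl) of the 30 measured import genes, with bars for centred values coloured by role (pale for dim genes), crosses for values as deposited and circles for loess; dotted lines mark 2-fold. Timm10b (1.10) alone passes a dotted line after centring, and Tomm20 and Timm23 change side with loess.

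Over the deposited, centred, quantile and loess scalings and a pseudocount, 13 of the 22 kept genes (59.1%) were above 0 in all 5 settings, against 33.6% of all kept genes, and 6 (27.3%) were below 0 in all 5, against 44.0%. The sign of the other 3 depended on the setting. These were Tomm20, Timm23 and Samm50.

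Brighter genes had larger differences on this pair of arrays, so each kept gene was also set against kept genes of its own brightness, in 20 bins of equal size. In 4 classes of brightness with equal numbers of genes, the kept genes had median differences of 0.0026, 0.02, 0.07 and 0.29 from dimmest to brightest. The import genes in those classes numbered 1, 5, 8 and 8, with medians of -0.66, 0.45, 0.34 and 0.61. Relative to genes of the same brightness the median of the 22 was 0.31, and 13 (59.1%) were above 0, against 49.7% of all kept genes. Timm10b (1.07), Timm17b (0.77) and Mtx1 (0.64) lay above the 90th percentile of their bin, and the other 19 lay between the 10th and the 90th. By definition about 10% of all kept genes lie above the 90th percentile of their bin, so 3 of 22 is near that share. Mtx1 passed narrowly, with a difference of 0.621 where the 90th percentile was 0.613. Pam16 (-0.06), Tomm20 (-0.26) and Timm23 (-0.30) lay below 0 on this scale, where genes of their bin had a median of 0.63. Tomm34 was lowest, at -0.62.

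**Figure D3:**
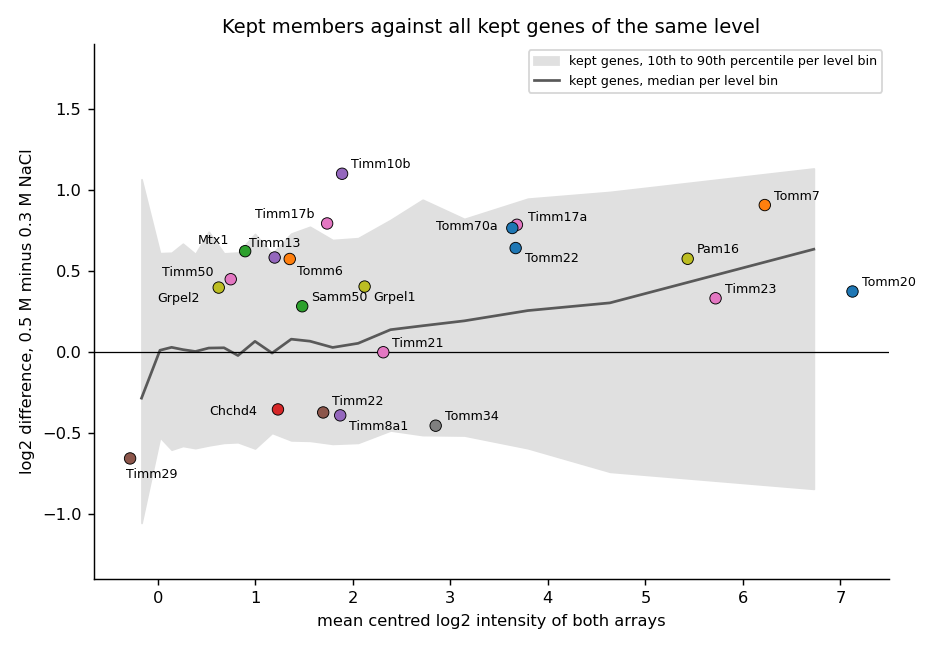
Log2 difference against mean centred log2 intensity of both arrays for the 22 kept import genes (coloured by role as in the plot of differences), with the median (line) and the 10th to 90th percentile (grey) of all 7446 kept genes in 20 brightness bins. Timm10b and Timm17b lie above the grey band, and Timm29 and Tomm20 lie at the ends of the range. Mtx1 passes the 90th percentile of its own bin but lies just inside the drawn band, which joins neighbouring bins.

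Kept genes listed as partners of import, some of them with other main roles such as Timmdc1, lay between -0.98 and 0.85. Over 16 kept genes the median was 0.22 after centring and 0.05 relative to genes of the same brightness. After centring 10 (62.5%) were above 0, near the 55.9% of all kept genes. The count was 8 of 16 relative to genes of the same brightness, near the 49.7% of all kept genes. As deposited it was 5 of 16, where 2562 of all 7446 kept genes were above 0. Hspa9, the Hsp70 that drives the PAM motor, went from 243 to 182 (-0.12), after centring opposite in sign to its cofactors Pam16, Grpel1 and Grpel2. Relative to genes of the same brightness, Hspa9 (-0.28) and Pam16 (-0.06) were both below 0, with Grpel1 at 0.35 and Grpel2 at 0.37. The matrix folding chaperones Hspd1 (838 to 543, -0.33) and Hspe1 (137 to 105, -0.08) were also below 0. Oxa1l, which inserts proteins into the inner membrane from the matrix, was at 0.26 as the mean of 2 probes. The largest differences in this list were those of Timmdc1, a complex I assembly factor related to the TIM17 family (175 to 72, -0.98), Mtch1, an outer membrane protein (632 to 928, 0.85), and Romo1, a small inner membrane protein that associates with TIM23 (1503 to 2066, 0.76). Gfer, the oxidase that recharges Chchd4, had no value on either array.

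Set beside other nuclear-encoded mitochondrial genes, the import genes' median of 0.43 equalled that of mitochondrial ribosomal proteins (0.43 over 58 kept genes). Complex I subunits had 0.68 over 34 and complexes II to V 0.66 over 43. TCA cycle enzymes had 0.26 over 12, MICOS and prohibitin genes, which shape the inner membrane, 0.28 over 9, mitochondrial proteases 0.25 over 7, and VDAC channels with SLC25 carriers 0.07 over 11. Relative to genes of the same brightness the import genes were at 0.31, complex I at 0.45, mitochondrial ribosomal proteins at 0.27 and complexes II to V at 0.17. Cytosolic ribosomal proteins, which are not mitochondrial, had 0.65 over 89 kept genes and 0.19 relative to genes of the same brightness. The difference between these lists was not tested.

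**Figure D4:**
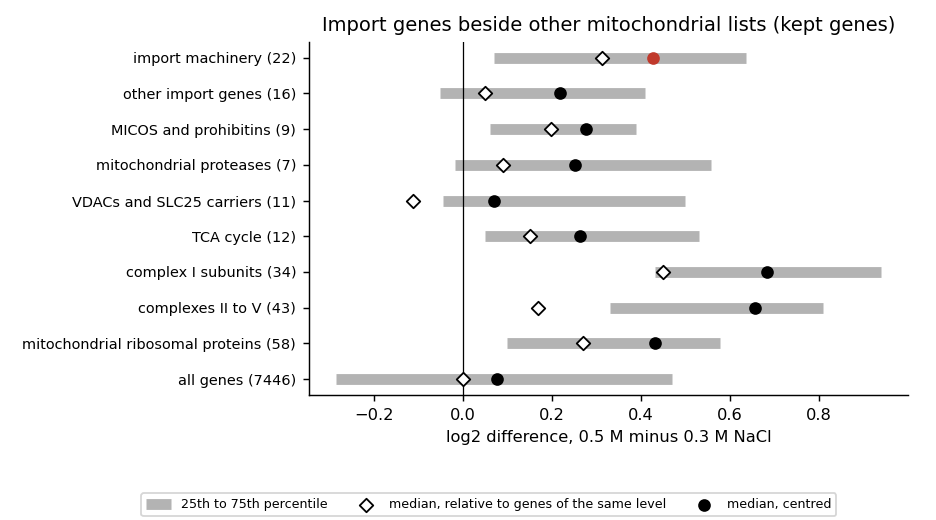
Median log2 difference (0.5 M minus 0.3 M NaCl) of each list over its kept genes (number in brackets), centred (filled) and relative to genes of the same brightness (diamond), with its 25th to 75th percentile (bar). The import genes, at 0.43 and 0.31, lie between complex I subunits (0.68 and 0.45) and VDACs with SLC25 carriers (0.07 and -0.11).

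Nuclear genes for mitochondrial proteins are known to be driven by NRF1, by ETS factors such as GABPA (NRF2), by YY1 and by Sp1, so the import genes' start sites were searched for short forms of these motifs on both strands. RefSeq windows (GRCm38.p6, 250 bases before to 50 after a start) were held for 28 of the 32 genes, all but Tomm7, Tomm40l, Timm21 and Grpel2. The ETS form CCGGAAG was in a window of 12 of the 28 (42.9%), against 18.4% of 5854 kept genes and 9.93% of all 27025 genes with a window. The NRF1 form GCGCATGCG was in 1 (3.57%, against 3.47% of kept genes), that of Timm13. The YY1 form AAGATGGCG was in those of Mtx1 and Timm50 (7.14% against 3.21%), at position 12 after the start in both. The GC box GGGCGG was in 15 (53.6% against 60.8%). The 28 include import genes too dim to be kept, so the shares of kept genes are not of a like set. Of all genes with a window, 1.95% had the NRF1 form, 1.64% the YY1 form and 38.2% the GC box. The motif matches describe letters and were not tested as binding sites. The arrays measured vesicle RNA, not promoter activity.

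The differences of import genes with and without the ETS form overlapped. The 8 kept genes that carry it had a median difference of 0.51 (-0.66 to 1.10), and the 11 that lack it 0.45 (-0.39 to 0.79). The 250 bases before the start are given for 3 carriers with matches there, Tomm70a (0.76) and Tomm22 (0.64), higher at 0.5 M, and Timm29 (-0.66), the lowest of the kept import genes. Each reads 5' to 3' along the gene, with the ETS form or its reverse complement in capitals and positions counted back from the start. Tomm70a is given from chr16:57121464-57121713 (plus strand), with matches beginning at -80 and -8. Tomm22 is given from chr15:79670618-79670867 (plus strand), with overlapping matches on both strands beginning at -47 and -44. Timm29 is given from chr9:21592472-21592721 (plus strand), with a match beginning at -212.
Tomm70a: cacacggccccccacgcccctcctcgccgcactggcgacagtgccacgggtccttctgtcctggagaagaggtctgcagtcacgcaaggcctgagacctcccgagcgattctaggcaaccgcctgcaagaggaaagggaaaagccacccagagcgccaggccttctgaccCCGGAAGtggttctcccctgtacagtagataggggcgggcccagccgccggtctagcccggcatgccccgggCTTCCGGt
Tomm22: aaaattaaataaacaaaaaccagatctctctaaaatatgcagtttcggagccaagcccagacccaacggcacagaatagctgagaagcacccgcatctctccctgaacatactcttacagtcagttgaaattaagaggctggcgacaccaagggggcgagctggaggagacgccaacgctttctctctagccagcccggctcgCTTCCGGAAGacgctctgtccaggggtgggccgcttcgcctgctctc
Timm29: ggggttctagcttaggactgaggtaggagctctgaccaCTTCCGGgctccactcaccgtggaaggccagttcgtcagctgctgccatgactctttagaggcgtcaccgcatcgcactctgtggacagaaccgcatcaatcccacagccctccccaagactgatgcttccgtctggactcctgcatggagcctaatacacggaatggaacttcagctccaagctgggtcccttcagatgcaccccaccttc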

How the data were processed

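The authors deposited 1 table of probe intensities for the 2 arrays, whole numbers on a linear scale with empty cells. Per the labels' protocols, the extracted RNA was made into amino allyl aRNA, which took up Cy5 dye. For the scanner, background correction, normalization and rule for empty cells, the answer is not given in the sources used here. Probe genes came from the array's annotation, with symbols looked up in RefSeq GRCm38.p6 (20556 probes matched by Entrez identifier, 9 by accession, and 125 kept the annotation's symbol). This gave the same 33 import probes as the annotation alone.

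Intensities were log2-transformed and centred per array on probes measured on both, and probes of the same gene were averaged. Python 3.11.15, pandas 2.3.3 and statsmodels 0.14.6 (lowess, span 0.3) were used, and the steps were tested on simulated data. The number of arrays limits the precision. Members, roles and gene lists were chosen with earlier results of these data known. All import genes are named; from other lists, the 3 kept genes with the largest absolute difference where a list is described gene by gene, plus Hspa9, Hspd1, Hspe1, Gfer, Oxa1l, Cd8a, Gzmb and Cd3e.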

Additional observations from a re-analysis of the deposited data

How the results depend on the processing

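Alternatives were quantile normalization, loess, a pseudocount of 16, other filters on dim genes, the brightest probe of a gene, the annotation's symbols and 50 brightness bins. The import genes' median of 0.43 was 0.13 with the values as deposited and 0.29 with the pseudocount, and between 0.34 and 0.49 under the others. Relative to genes of the same brightness, the median of 0.31 was 0.17 with no filter on dim genes and between 0.27 and 0.36 under the others. The count at least 2-fold higher, 1, became 0 as deposited, with the pseudocount and at a 4-fold threshold, and 7 at a 1.5-fold threshold; the count lower, 0, became 1 at 1.5-fold. Of all kept genes, 390 were at least 2-fold higher and 175 lower, against 121 and 579 as deposited, 250 and 288 with quantile normalization, 235 and 293 with loess, 157 and 98 with the pseudocount and 701 and 380 with no filter. The count lower was 83 with a filter at the 75th percentile. Single import genes changed sign in 7 values, over Tomm20, Timm23, Samm50, Mtx2 and Tomm40. Filters on dim genes cannot change a single gene's difference, and the choice of probe can change only that of Tomm40. The annotation's symbols gave the same differences. No paired analysis was possible because each fraction has 1 array. A planned description of the difference by protein length was not run, because protein sequences were not used here. Dim probes and the single array per fraction limit every value.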
